A study of Mus musculus with 12 samples.

Results

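The data described here are the 6 libraries of brown adipose tissue from mice of 4 weeks of age, out of 12 in the series. They were taken by the columns of the 4-week count table: 3 libraries of genotype Flox and 3 labelled KO, which the series names Nfe2l1(f)-KO. The other 6 libraries, of the same labels at 14-16 weeks, stand in a separate table and were not analysed here. The libraries are called Flox 1, Flox 2, Flox 3, KO 1, KO 2 and KO 3, after the replicate numbers of the labels. Flox is the usual name of a mouse whose gene is flanked by recombination sites and which lacks the recombinase. The labels name neither the recombinase driver nor the deleted exons, and do not give sex or say whether each library came from a separate animal. Every p-value below therefore measures the spread between these libraries, which may be technical. KO stands for the label throughout, because Nfe2l1 itself was not lower in those libraries.

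Nfe2l1 encodes NRF1, a transcription factor held in the membrane of the endoplasmic reticulum. When proteasome capacity is short, NRF1 is released by deglycosylation and cleavage and raises the genes of the proteasome, the complex that degrades ubiquitin-tagged proteins. Brown adipose tissue burns fatty acids in mitochondria that the uncoupling protein UCP1 makes leaky, and the depot heats the body under sympathetic stimulation through beta-adrenergic receptors and cyclic AMP. Protein turnover in brown adipocytes is high, and NRF1 is known for sustaining proteasome supply in this tissue in the cold.

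The libraries held 49927109 to 56906282 counted reads, and 20465 of the 53819 genes of the table passed the filter on low counts and were tested. Levels are given in CPM, the usual unit of read counts scaled to a common library size. Differences are fitted log2 differences, KO minus Flox, with their standard error (SE), from edgeR's quasi-likelihood test. Over all genes the profile of KO 1 was nearest to Flox 1 (Pearson's r across genes 0.993), and KO 2 and KO 3 were nearest to each other (0.991). KO 1 correlated with KO 2 and KO 3 at 0.956 and 0.96, below its value with each of the 3 Flox libraries. The share of mitochondrially coded reads was 11.5%, 9.7% and 4.67% in Flox 1 to Flox 3 and 13.5%, 4.21% and 7.12% in KO 1 to KO 3.

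Flox 2 was nearly a weighted sum of Flox 1 and Flox 3. Of 10112 genes of at least 10 CPM in 1 library or more, Flox 2 lay between Flox 1 and Flox 3 for 75.5%. Where those libraries differed at least 2-fold, it lay between them for 1060 of 1061 genes. A sum of 67% Flox 1 and 33% Flox 3 matched Flox 2 with a root mean square error of 0.0941 on the log2 scale, against 0.245 for the nearest single library. That sum was within 0.2 of Flox 2, on the log2 scale, for 95.9% of the genes and 2-fold off for 0. Best sums of 2 libraries for the other 5 left errors of 0.199 to 0.465. Xist, the RNA that silences an X chromosome in females, had 6, 6540 and 24038 reads in Flox 1 to Flox 3, and the Y-linked Ddx3y had 3443, 2027 and 4 reads. Measured from Flox 1 to Flox 3, Flox 2 lay at 0.331 of the way for Xist and at 0.392 for Ddx3y. Over the 1061 genes that differed at least 2-fold between Flox 1 and Flox 3, its median position was 0.331. KO 1 to KO 3 held 8 to 16 Xist reads and 4108 to 6870 Ddx3y reads. The labels mention no pooling, and how Flox 2 came to carry both profiles was not tested. As far as Flox 2 can be written from the other 2, the Flox group holds less independent information than 3 libraries, and its spread is understated. Many results below are therefore also given without Flox 2. Where that fit is not mentioned, a call should not be taken to hold without Flox 2. The Flox and KO groups also differ in Xist and Y-linked reads, and the part of this in other genes was not tested.

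**Figure D1:**
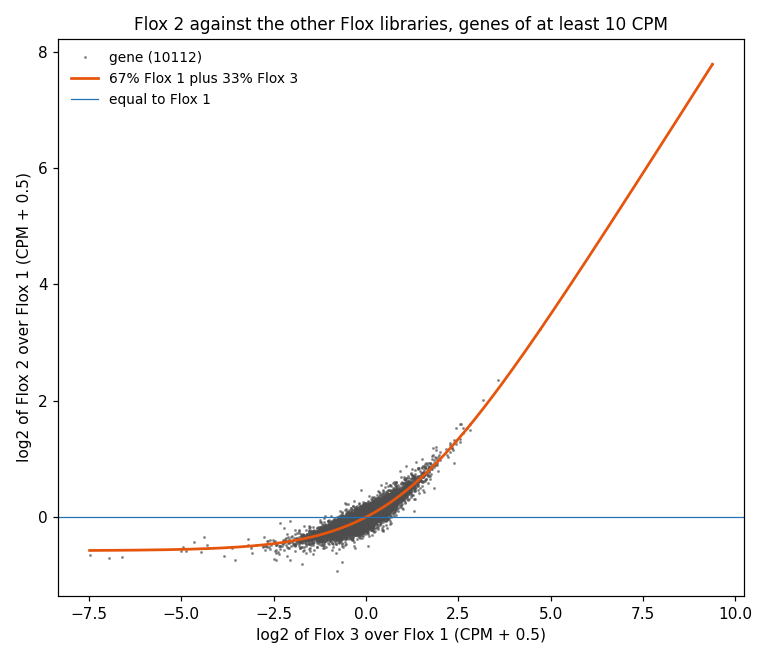
Each point is 1 of 10112 genes, with the log2 ratio of Flox 3 to Flox 1 on the horizontal axis and that of Flox 2 to Flox 1 on the vertical axis (CPM plus 0.5). The curve is what a sum of 67% Flox 1 and 33% Flox 3 would give, and the points follow it rather than the horizontal line of equality with Flox 1.

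No gene passed an adjusted p of 0.05 (Benjamini-Hochberg over 20465 genes; smallest 0.454) between KO and Flox. At an unadjusted p under 0.05, 1172 genes (5.73%) were higher and 871 (4.26%) lower in KO. The groups did not overlap for 1783 genes higher (8.71%) and 1713 genes lower in KO (8.37%), and 53.3% of genes had a log2 difference above 0. Without Flox 2, 500 genes (2.34%) were higher and 413 (1.94%) lower at the unadjusted threshold. Without KO 1, 1764 genes passed the adjusted threshold, 921 higher (4.33% of 21293) and 843 lower (3.96%). Without both Flox 2 and KO 1, 25 of 21019 genes passed, 18 higher and 7 lower, and all 25 were among the 1764. Leaving out Flox 1 or Flox 3 beside KO 1 instead, which also leaves 2 libraries against 2, gave 1044 and 6178 genes. The count without KO 1 thus depended on which Flox libraries stayed in, and was low in the fit without Flox 2. KO 1 was the KO library nearest to Flox, so each adjusted p given without it is conditional on leaving it out. DESeq2 called 204 genes higher (0.997%) and 88 lower (0.43%), with Flox 2 kept. Genes of the smallest edgeR p named below were among them, such as Zfp949 (adjusted p = 1.04e-13 by DESeq2) and Slc7a10 (adjusted p = 1.67e-05 by DESeq2). Gene lists are described below by their members, for which the shares above are the background.

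Levels by library fell into 3 patterns. Skeletal muscle genes were higher in all 3 libraries labelled KO, and highest in KO 2. Many, though not all, immediate early and matricellular genes were highest in KO 2 and KO 3. Mitochondrial and fatty acid oxidation genes in sum, and most heat shock genes, were high in Flox 1, Flox 2 and KO 1 and low in Flox 3, KO 2 and KO 3, which divides both labels. Of 33 proteasome subunits, 31 did not pass even the unadjusted threshold.

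**Figure D2:**
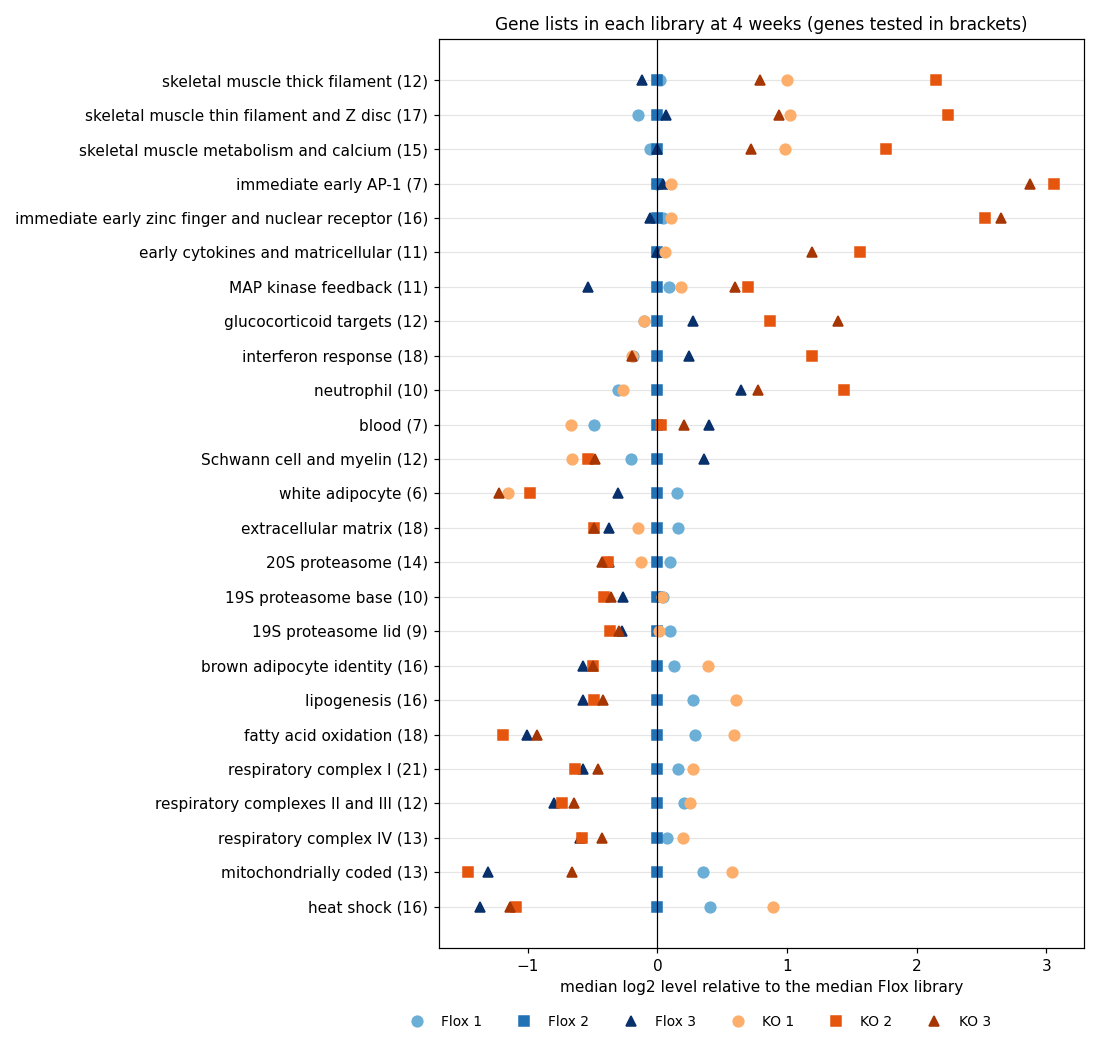
Each point is the level of 1 gene list (vertical axis) in 1 library, as the median over its tested members of log2 CPM relative to the median Flox library of each member (horizontal axis). Muscle lists stand out in all 3 libraries labelled KO, immediate early lists in KO 2 and KO 3, and the heat shock and oxidative lists are low in Flox 3, KO 2 and KO 3.

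Nfe2l1, the gene that the label says was removed, measured 280.5, 261 and 211 CPM in Flox 1 to Flox 3 and 569.7, 282 and 424 CPM in KO 1 to KO 3. The highest library was KO 1, and KO 2 lay within 2 CPM of Flox 1. The log2 difference was 0.76 (SE 0.28, adjusted p = 0.481 by edgeR), and 0.76 without Flox 2. Reads summed over all exons cannot show whether some of them are missing. Of the genes next to Nfe2l1 on its chromosome, Snx11 and Cbx1 lay at log2 differences of -0.25 and -0.18, and Copz2 and Cdk5rap3 at 0.04 and 0.12, so the higher level was not shared by these neighbours.

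Among 10 NRF family members and partners, 4 were higher in KO at the unadjusted threshold and 0 lower, and 1 of these 4 without Flox 2. Nfe2l3, the close relative NRF3, was near the detection limit, at 0.587, 0.397 and 0.567 CPM in Flox and 0.865, 1.91 and 1.11 CPM in KO (log2 difference 1.32, SE 0.39). Nfe2l2, which encodes the oxidative stress factor NRF2, overlapped between the groups, at 64.7, 59.3 and 42.9 against 65.4, 61.2 and 70.3 CPM. The small Maf proteins are the DNA-binding partners of both factors. Maff measured 18.2, 21.4 and 18.8 CPM in Flox and 27.4, 199 and 202 CPM in KO (log2 difference 2.88, SE 0.69). Mafk was at 81.4, 77.3 and 74.3 CPM in Flox and 67.7, 340.0 and 269 CPM in KO, while Mafg ranged only from 54.5 to 72 CPM over the 6 libraries. Both Maff and Mafk were thus high in KO 2 and KO 3 and at the Flox level, or near it, in KO 1. Keap1, which marks NRF2 for degradation, was at 55.7, 54 and 62.9 CPM in Flox and 51.4, 48.8 and 44.1 CPM in KO (-0.26, SE 0.15).

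Enzymes that release and degrade NRF1 differed little. Of 14 such genes, 1 was higher and 1 lower at the unadjusted threshold, and the median log2 difference was 0.08. Without Flox 2, 0 of the 14 passed that threshold. Ngly1, the enzyme that strips sugars from NRF1, measured 14.1, 14.9 and 14.5 CPM in Flox and 16.6, 17.2 and 18.2 CPM in KO (0.26, SE 0.14). Ddi2, the protease that cleaves it, overlapped between the groups at 59.2, 55.9 and 49.5 against 63.3, 54.2 and 65.5 CPM. Vcp, the ATPase that pulls NRF1 out of the membrane, was lower in KO, at 245, 230.1 and 189 against 188, 156 and 150.1 CPM (-0.43, SE 0.18). The 3 KO values of Vcp lay below all Flox values, KO 1 by about 1 CPM. Hcfc1, a chromatin factor that binds the glycosylating enzyme Ogt, was at 43.5, 38.5 and 40.9 CPM in Flox and 44.8, 69 and 64.8 CPM in KO (0.54, SE 0.20).

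All 14 genes of the proteasome's 20S core had a log2 difference below 0, with a median of -0.22, against 0.03 over all genes tested. In 5 of the 14 the groups did not overlap, where 8.37% of all genes lay apart in this direction, and 1 passed the unadjusted threshold. That gene, Psmb1, a structural subunit of the core's inner ring, measured 46.5, 50.2 and 49.7 CPM in Flox and 36.6, 36.4 and 36.3 CPM in KO (-0.42, SE 0.13, adjusted p = 0.47 by edgeR). Psma5, of the outer ring, was at 28.3, 25.9 and 23.4 against 22.2, 19.5 and 20.1 CPM (-0.33, SE 0.15), and Psma7 at 66.3, 72.2 and 76.4 against 47.9, 61.9 and 57 CPM (-0.36, SE 0.16). The 3 catalytic subunits are Psmb5, Psmb6 and Psmb7. Psmb5 overlapped, with 50.3, 43.5 and 29.2 CPM in Flox and 45, 24.2 and 23.9 CPM in KO, and Flox 3 was nearer to KO 2 and KO 3 than to the other Flox libraries. Psmb6 was at 84.5, 99 and 99.9 against 74, 83.9 and 71.8 CPM (-0.30, SE 0.15) and Psmb7 at 126, 112 and 72 against 109.7, 80 and 81.3 CPM. Without Flox 2, 0 of the 14 passed the unadjusted threshold, and 0 passed the adjusted one without KO 1.

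Summed over the core, the level was 1285, 1237 and 978 CPM in Flox and 1082, 902 and 861 CPM in KO, so that Flox 3 lay below KO 1. The 19S particle, which recognises and unfolds tagged proteins, had a median of -0.13 over its 10 base subunits and -0.19 over its 9 lid subunits. Of these 19, 1 was lower at the unadjusted threshold and 0 higher, and without Flox 2 0 passed in either direction. Psmd1, the large scaffold of the base, measured 192, 198 and 163 CPM in Flox and 148, 125 and 109.9 CPM in KO (-0.53, SE 0.18). Psmd4, a ubiquitin receptor, was at 357, 429 and 482 against 268, 299.8 and 354 CPM (-0.46, SE 0.20), and KO 3 lay 3 CPM below Flox 1. Psmd8 of the lid went the other way, at 92, 86.1 and 67.9 against 106, 95.3 and 119 CPM (0.38, SE 0.18). Assembly factors and activators, such as Pomp (59.2, 56.8 and 53.8 against 55, 47.5 and 48.6 CPM) and Psme4 (33.4, 30.3 and 26.4 against 33.7, 32 and 32.8 CPM), had 0 of 12 members past the unadjusted threshold. The inducible immunoproteasome subunit Psmb8 measured 51, 83.2 and 124 CPM in Flox and 63.5, 167 and 107 CPM in KO, which overlapped. The antioxidant response element, searched as TGACNNNGC on both strands of the 250 bases before the start of transcription, was present in 5 of 27 proteasome genes with a promoter sequence (18.5%), against 13.9% of 12612 tested genes.

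**Figure D3:**
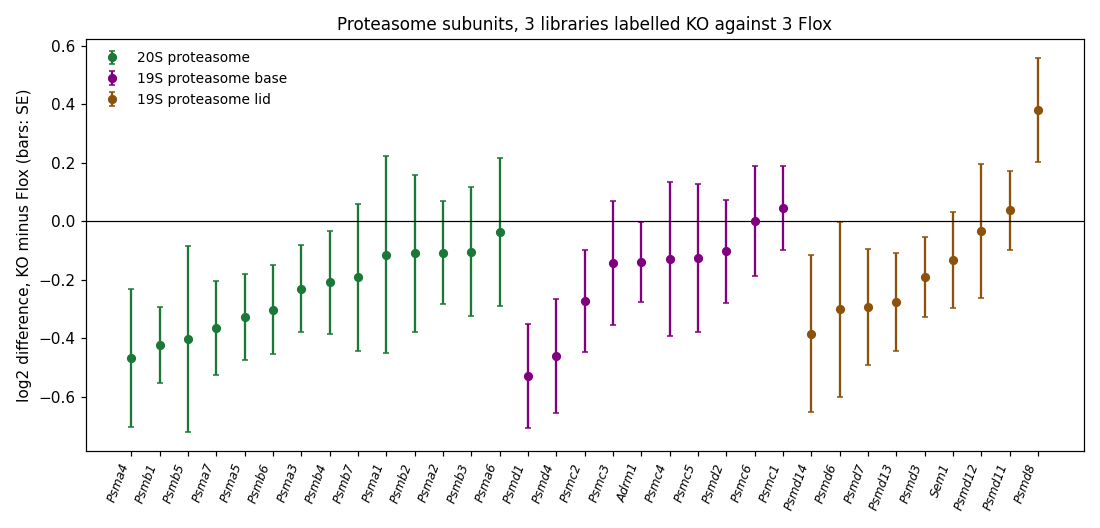
Log2 differences of 33 proteasome subunits, KO minus Flox (vertical axis), with bars of 1 SE on each side, grouped into core, base and lid. All 14 subunits of the 20S core lie below 0 and Psmd8 of the lid lies highest.

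Genes of ubiquitin and of selective autophagy, the other route for damaged proteins, had a median log2 difference of 0.37, with 11 of 12 above 0. In 4 of the 12 the KO libraries lay above all Flox libraries, against 8.71% of all genes, and 2 passed the unadjusted threshold (1 without Flox 2). Ubb, a polyubiquitin gene, measured 1202, 1251 and 1108 CPM in Flox and 1164, 1557 and 1886 CPM in KO and overlapped. The autophagy receptor Optn was at 369, 349 and 316 against 385, 493 and 526 CPM (0.44, SE 0.19). Sqstm1, which encodes the adaptor p62, was at 152, 149 and 139 against 139.7, 221 and 296 CPM (0.58, SE 0.28), high in KO 2 and KO 3. Map1lc3b, coding for an autophagosome membrane protein, was at 117, 126 and 111 against 144, 131 and 199.8 CPM (0.42, SE 0.20).

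Antioxidant response genes had a median log2 difference near 0, with 8 of 16 above 0, and 3 were higher at the unadjusted threshold (1 without Flox 2). Osgin1, an oxidative stress-induced growth inhibitor, measured 1.72, 2.03 and 1.39 CPM in Flox and 4.33, 5.45 and 6.34 CPM in KO (1.65, SE 0.25, adjusted p = 0.47 by edgeR). All 3 KO values lay at least 2-fold above the highest Flox value. Txnrd1, which regenerates thioredoxin, was at 42.7, 35.3 and 28.8 against 55.2, 55 and 47.6 CPM (0.56, SE 0.19), and Gclc, the rate-limiting enzyme of glutathione synthesis, at 14.8, 13.8 and 16.7 against 17.8, 20.2 and 20.6 CPM (0.37, SE 0.15). The NRF2 targets Nqo1 (2.41, 2.72 and 2.25 against 3.68, 2.74 and 2.26 CPM) and Srxn1 (35.2, 31.1 and 22.4 against 45, 13.7 and 13.9 CPM) overlapped between the groups.

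Of the 8 genes with the smallest p among those higher in KO, without overlap and at 10 CPM or more, Zfp949, a zinc finger gene, came first. It measured 15.8, 17.7 and 21 CPM in Flox and 57.6, 76.3 and 78.8 CPM in KO (1.96, SE 0.20, adjusted p = 0.454 by edgeR). Without Flox 2 the difference was 1.92. Egln3, an oxygen-sensing prolyl hydroxylase, was at 5.06, 4.18 and 3.81 against 9.58, 11.3 and 11.1 CPM (1.29, SE 0.19). Kit, the stem cell factor receptor, was at 11.9, 9.63 and 9.19 against 23.1, 54.9 and 30.8 CPM (1.82, SE 0.33). Prkab1, a subunit of the energy sensor AMPK, was at 13.7, 13.8 and 12.9 against 20.9, 31.7 and 25.4 CPM (0.95, SE 0.19). In all 4 the KO libraries lay well above Flox, KO 1 lowest of them. Plekha7, a junction protein gene, had a log2 difference of 1.52 (SE 0.30), and Pfkm, the muscle-type phosphofructokinase, of 0.84 (SE 0.17).

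The other 2 of the 8, Kng1 and Eif4a2, are neighbours on chromosome 16, beside the adiponectin gene Adipoq. Kng1, the kininogen gene, measured 1.48, 1.84 and 1.7 CPM in Flox and 20.1, 19.9 and 7.07 CPM in KO (3.23, SE 0.43, adjusted p = 0.47 by edgeR). In reads these were 73, 88 and 99 against 929, 1218 and 422, so that the lowest KO library had more than 4 times the reads of the highest Flox library. Eif4a2, an RNA helicase of translation initiation, was at 241, 230.0 and 204 against 375, 534 and 528 CPM (1.09, SE 0.20). In the order of the RefSeq annotation, Kng1, Eif4a2 and Rfc4 are the 3 genes directly before Adipoq. Rfc4, a subunit of the clamp loader of DNA replication, had a log2 difference of 0.49 with no overlap. Kng2, on the far side of Kng1, was at 0.32 and overlapped. Adipoq itself was at 0.00, and St6gal1 and Masp1 beyond it were at -0.24 and 0.01. These neighbours were chosen after their values were seen. As background, transgenes made from large genomic clones around Adipoq are commonly used to drive Cre in adipocytes, and such clones can carry neighbouring genes. The labels name no driver, and the part of such a clone in these values was not tested.

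Among the 8 genes lower in KO by the same rule, Slc7a10 came first. Slc7a10 encodes a small neutral amino acid transporter of the adipocyte surface and is a marker of white adipocytes. It measured 20.7, 27.4 and 31.1 CPM in Flox and 10.6, 11.4 and 9.59 CPM in KO (-1.33, SE 0.19, adjusted p = 0.47 by edgeR). Palm, a lipid-anchored protein of the plasma membrane, was at 203, 233 and 275 against 110.4, 93.2 and 107 CPM (-1.19, SE 0.18), and Lrp3, a cell surface receptor, at 28.4, 34.1 and 40.8 against 18.1, 16.6 and 12.3 CPM (-1.14, SE 0.21). In each of these KO 1 was about as low as KO 2 and KO 3. Pik3c2b, a lipid kinase, Pmp22, a myelin protein, and Efnb2, an ephrin of arteries, had log2 differences of -1.04, -0.62 and -0.72. Eps8l2 and Olfr558 were at -0.96 and -0.93.

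**Figure D4:**
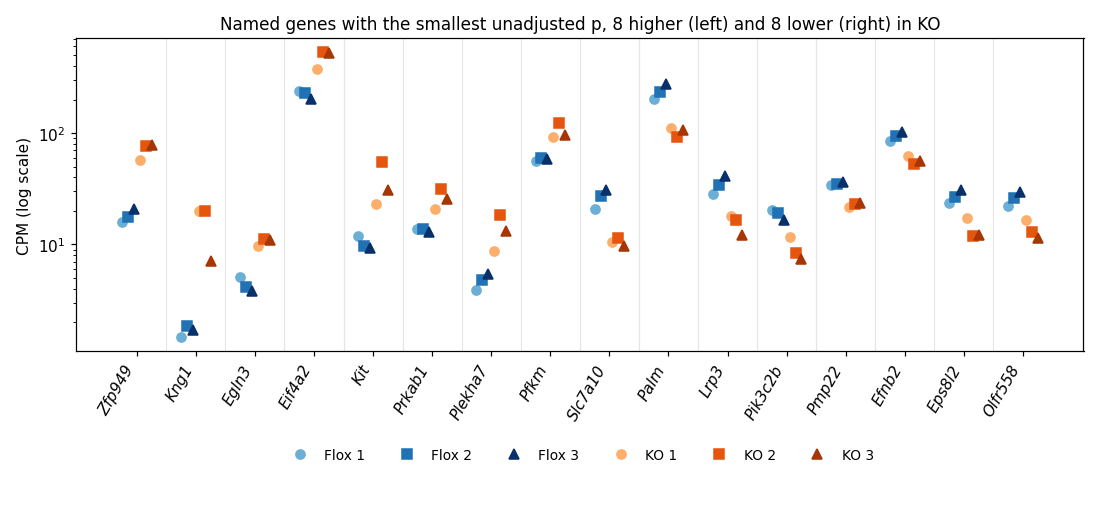
CPM on a log axis in each of the 6 libraries for the 16 genes of the smallest p, 8 higher and 8 lower in KO, with 1 point per library. The KO points lie to 1 side of the Flox points for each gene, as the rule required.

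The 3 skeletal muscle lists had the most members past the unadjusted threshold of the 56 lists. Over 44 list entries for the thick filament, the thin filament and Z disc, and muscle metabolism and calcium, all had a log2 difference above 0, and 40 passed the unadjusted threshold (36 without Flox 2), against 5.73% of all genes. Summed thick filament genes stood at 2491, 2577 and 2502 CPM in Flox and 5518, 15080 and 5757 CPM in KO. The Flox libraries were nearly level, KO 1 and KO 3 were more than 2-fold higher, and KO 2 was more than 5-fold higher. The genes cover fast and slow fibres alike. Myh2, a fast oxidative myosin, measured 246, 213 and 126 CPM in Flox and 589, 1169 and 408 CPM in KO (1.89, SE 0.45), and Myh7, the slow myosin, 356, 326 and 272 against 594, 1387 and 561 CPM (1.41, SE 0.38). Myh8, the perinatal myosin, was at 6.55, 6.12 and 5.48 against 17.5, 48.9 and 16.7 CPM (2.19, SE 0.45). In bulk tissue, fewer or more cells of a type and less or more RNA per cell cannot be told apart, and the part of muscle tissue in these libraries was not tested. Genes of calcium cycling and respiration that have a muscle form lay higher beside these. Atp2a1, the muscle calcium pump SERCA1, was at 67.6, 76.5 and 95.8 against 166, 586 and 258 CPM (2.08, SE 0.47), and its receptor partner Ryr1 at 50.1, 52.7 and 51.7 against 99.8, 346 and 122 CPM (1.88, SE 0.47). Cox6a2, the muscle form of a cytochrome oxidase subunit, was at 6.67, 9.36 and 9.31 against 15.9, 48.4 and 18.5 CPM (1.71, SE 0.45), while its general form Cox6a1 overlapped at 158, 152 and 117 against 184, 106 and 156 CPM. Atp2a2, the calcium pump of non-muscle cells and slow fibres, also overlapped, at 78.7, 67.5 and 52.9 against 96.3, 76 and 76 CPM.

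Many immediate early genes, which cells switch on within minutes of a stimulus, were high in KO 2 and KO 3 and at or near Flox levels in KO 1. Of 7 AP-1 genes, 5 were higher in KO at the unadjusted threshold and 3 without Flox 2. Of 16 zinc finger, nuclear receptor and related genes, 7 were higher and 6 without Flox 2. Fosb, an AP-1 subunit, measured 2.1, 1.34 and 2.18 CPM in Flox and 2.42, 175 and 104 CPM in KO (5.64, SE 1.35). The zinc finger factors Egr3 (3.13, 2.09 and 2.42 against 2.92, 149.9 and 100.2 CPM) and Egr2 (1.01, 1.8 and 2.13 against 1.25, 73.1 and 51.7 CPM) had log2 differences of 5.05 and 4.67. Nr4a1, an orphan nuclear receptor, was at 51.5, 51.4 and 50.1 against 82.6, 845 and 652 CPM (3.37, SE 0.77), and its relative Nr4a2 at 47, 37.5 and 19.7 against 83.8, 238 and 228 CPM (2.40, SE 0.49). KO 1 lay above the Flox libraries for both receptors, by far less than KO 2 and KO 3. A few members were also uneven within Flox. Fos was at 2.33, 7.21 and 16.8 CPM in Flox, Junb at 10.6, 20.8 and 40.6 CPM and Egr1 at 9.06, 89.2 and 249.6 CPM, each lowest in Flox 1 and highest in Flox 3, and in KO they reached 4.2, 282 and 205, 9.32, 178 and 156 and 10.2, 1137 and 974 CPM. Not all members shared the pattern. Klf2 (49.1, 47.1 and 37.1 against 51.6, 38.2 and 22.9 CPM) and Klf4 (276, 216 and 103 against 229, 96.7 and 84.7 CPM), zinc finger factors of endothelium and smooth muscle among other cells, were lowest in KO 3. Ier3, Ier5 and Fosl1 overlapped between the groups. So did Fos, Egr2 and Egr3, so overlap does not tell whether a member shared the pattern.

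Without KO 1, 4 of the 7 AP-1 genes and 9 of the 16 others rose in KO 2 and KO 3 against the Flox libraries (adjusted p under 0.05), against 4.33% of all genes. For Fosb the log2 difference was then 6.20 (adjusted p = 0.00189 by edgeR), for Egr3 5.60 (0.00168) and for Nr4a1 3.86 (0.00118). These 3 genes were named for their large changes in that same fit. It leaves out the KO library that was low for them and keeps Flox 2, so the p-values are conditional on that choice. Thbs1 and Ccn1, secreted matricellular proteins, had the same pattern. Of the 11 early cytokine and matricellular genes tested, 6 were higher at the unadjusted threshold with all libraries and 3 without Flox 2, and 7 passed the adjusted threshold without KO 1. Thbs1 measured 7.08, 6.56 and 6.56 CPM in Flox and 7.92, 137 and 148 CPM in KO (4.39 without KO 1), and Ccn1 35.4, 34.7 and 34.1 against 52.4, 672 and 522 CPM (4.09). Both, with Maff, Fosb, Egr2, Egr3, Nr4a1 and Sik1, were among the 18 higher genes that passed without Flox 2 and KO 1 together. In that fit 1 of the 7 AP-1 genes, 4 of the 16 and 2 of the 11 passed, against 18 of all 21019 genes tested. Also among the 18 were Tnfrsf10b, a death receptor (11, 11.1 and 9.16 against 12.9, 99.3 and 85 CPM), Plaur, the urokinase receptor (6.17, 4.8 and 6.53 against 3.5, 64.3 and 44.5 CPM), Ptger4, a prostaglandin E2 receptor (14.7, 14.4 and 11.9 against 14.9, 74 and 74.3 CPM), and Fam13a, a regulator of adipocyte insulin signalling (62.9, 65.1 and 78.2 against 58.6, 469 and 466 CPM). These 4 were chosen after their values were seen, and in each KO 1 lay near the Flox libraries.

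The promoters of 5 genes that moved together in KO 2 and KO 3 are shown. All 5 carry the motif marked, and others that moved alike, such as Egr3 and Thbs1, are not shown. Each line gives 120 bases up to the start of transcription, read 5′ to 3′ on the gene's strand, from RefSeq (GRCm38.p6). Capitals mark TGACG, or CGTCA on the other strand, the core of the cyclic AMP response element TGACGTCA. Fos lies at chr12:85473770-85473889 on the plus strand, Fosb at chr7:19310046-19310165 on the minus strand, Nr4a1 at chr15:101266726-101266845 on the plus strand, Ccn1 at chr3:145649986-145650105 on the minus strand and Atf3 at chr1:191183334-191183453 on the minus strand.
Fos: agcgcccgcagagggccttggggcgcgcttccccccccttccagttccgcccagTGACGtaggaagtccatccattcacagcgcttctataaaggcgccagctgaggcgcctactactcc
Fosb: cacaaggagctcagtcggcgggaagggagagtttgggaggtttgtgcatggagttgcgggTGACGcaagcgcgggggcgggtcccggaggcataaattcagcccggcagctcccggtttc
Nr4a1: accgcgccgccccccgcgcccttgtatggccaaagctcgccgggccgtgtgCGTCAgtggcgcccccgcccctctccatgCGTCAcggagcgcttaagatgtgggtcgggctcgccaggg
Ccn1: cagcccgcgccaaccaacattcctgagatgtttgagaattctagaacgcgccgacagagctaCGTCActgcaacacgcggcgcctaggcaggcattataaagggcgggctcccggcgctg
Atf3: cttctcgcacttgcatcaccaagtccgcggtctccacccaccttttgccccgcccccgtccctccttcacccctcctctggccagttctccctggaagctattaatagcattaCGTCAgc
The matches lay 66 to 62 bases before the start in Fos, 60 to 56 in Fosb, 69 to 65 and 40 to 36 in Nr4a1, 58 to 54 in Ccn1 and 7 to 3 in Atf3. Over the 250 bases before the start, TGACG was present in 12 of the 19 immediate early genes with a promoter sequence (63.2%; 23 listed) and in 28.1% of 12612 tested genes. Klf2 and Klf4, which did not share the pattern, are among the 12. TGACG was also present in 12 of 27 proteasome genes (44.4%). The full TGACGTCA was in 2 of the 19 (10.5%, against 2.71%), and the serum response element's CArG box in 2 (10.5%, against 1.48%). The motifs were chosen after the sequences were read, and a match is only a match of letters.

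**Figure D5:**
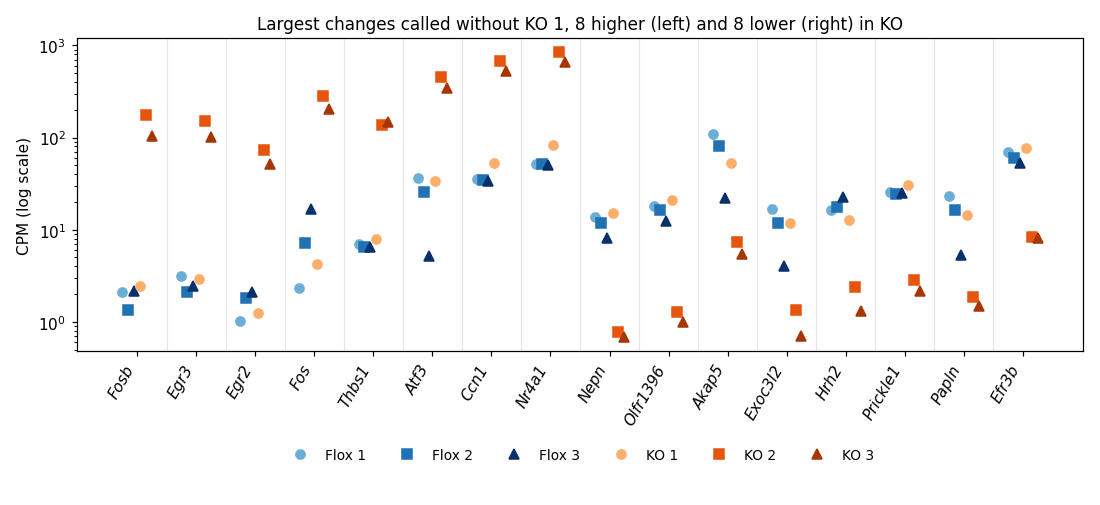
CPM on a log axis in each library for the 8 genes with the largest rise and the 8 with the largest fall without KO 1, with 1 point per library. KO 2 and KO 3 lie together and apart, and KO 1 lies among the Flox libraries or near them.

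Of the genes lower in KO 2 and KO 3, Prickle1, a planar polarity gene, measured 25.5, 24.5 and 25.3 CPM in Flox and 30.3, 2.84 and 2.18 CPM in KO. The difference was -3.34 without KO 1 (adjusted p = 0.00189 by edgeR) and -1.10 with it. Efr3b, a membrane anchor of lipid kinases, was at 70.3, 59.3 and 52.7 against 76.9, 8.29 and 8.15 CPM (-2.90 without KO 1). Hrh2, the histamine H2 receptor, was at 16.5, 17.8 and 22.5 against 12.8, 2.4 and 1.31 CPM, and Akap5, an anchor for protein kinase A, at 109, 80.4 and 22.2 against 53, 7.27 and 5.4 CPM. KO 1 lay within the Flox range or above it for Prickle1, Efr3b and Akap5, and below it for Hrh2. Prickle1 and Efr3b passed without Flox 2 and KO 1 together, and Hrh2 and Akap5 did not. Aplnr, the apelin receptor of endothelium (24.5, 23.9 and 24.2 against 14.8, 4.88 and 4.66 CPM), and Mmp15, a membrane metalloproteinase (39.1, 39.2 and 33.6 against 44.1, 6.96 and 7.91 CPM), passed without Flox 2 and KO 1 together. Those 2 were chosen after their values were seen.

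Genes that restrain MAP kinase signalling did not share a library order. Of 11, all had a log2 difference above 0, and 4 were higher at the unadjusted threshold (2 without Flox 2). The adjusted threshold was passed by 4 without KO 1 and by 0 without both KO 1 and Flox 2. Dusp5, a nuclear ERK phosphatase, was at 4.07, 2.9 and 1.48 against 4.37, 24.2 and 17.6 CPM (2.45, SE 0.66), and Gadd45b, a stress sensor, at 2.53, 3.59 and 3.33 against 3.76, 9.63 and 18.2 CPM (1.74, SE 0.53), both highest in KO 2 and KO 3. Dusp4 (33.2, 25.1 and 9.22 against 49.7, 35.8 and 38.2 CPM) and Dusp6 (49.2, 43.9 and 24.5 against 68.1, 36.8 and 33.7 CPM), phosphatases of the same family, were highest in KO 1, and Dusp6 overlapped between the groups. Of 16 genes of the integrated stress response, 3 were higher at the unadjusted threshold, the same number without Flox 2, and 5 passed the adjusted threshold without KO 1, but 0 without both KO 1 and Flox 2. Its transcription factor Atf4 measured 251, 253 and 219 CPM in Flox and 284, 574 and 568 CPM in KO (0.98, SE 0.29), and its feedback phosphatase subunit Ppp1r15a 85.8, 92.5 and 118 against 99.4, 605 and 637 CPM (2.18, SE 0.64). Atf3 was at 36.7, 25.8 and 5.14 against 34.1, 458 and 345 CPM (3.63, SE 1.07), with the lowest value in Flox 3. Enzyme genes that ATF4 is known to induce differed in library order, and those named here overlapped between the groups. Asns, asparagine synthetase, was at 25.3, 20.5 and 11.3 against 24.3, 11 and 15.6 CPM and Phgdh, of serine synthesis, at 21.4, 17.3 and 6.67 against 13.8, 15.9 and 23.1 CPM. Chac1, which degrades glutathione, was highest in KO 2 and KO 3, at 0.971, 1.29 and 1.75 against 0.671, 3.48 and 2.5 CPM. The circulating stress signals were near the detection limit. Gdf15 was at 0.283, 0.209 and 0.0687 against 0.216, 1.89 and 1.21 CPM (2.58, SE 0.84), and Fgf21 had too few reads to be tested, at 0, 0.0418 and 0.0344 against 0.476, 0.098 and 0.302 CPM.

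In the endoplasmic reticulum, where NRF1 resides, 3 of 18 chaperone and folding genes were higher at the unadjusted threshold and 1 without Flox 2. Hspa5, the master chaperone BiP, measured 424, 406 and 303 CPM in Flox and 459.5, 582 and 615 CPM in KO (0.55, SE 0.21). Its cofactor Dnajb9 was at 28.5, 26.1 and 17.4 against 40.8, 33.1 and 43.2 CPM (0.70, SE 0.22), and the unfolded protein response factor Xbp1 at 41.2, 40.2 and 43.1 against 48, 61.2 and 51 CPM (0.36, SE 0.15). All 3 KO libraries lay above all Flox libraries in these, KO 1 by least for Hspa5 and Xbp1. Abundant chaperones of the same compartment overlapped, such as Hsp90b1 (1107, 1060 and 881 against 1169, 948 and 1005 CPM) and Pdia4 (102, 109 and 101 against 109, 83.6 and 79.5 CPM).

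Most brown adipocyte identity genes overlapped between the labels. Their median log2 difference was 0.09, with 2 of 16 higher at the unadjusted threshold and 0 without Flox 2. Without KO 1, 3 of the 16 fell, against 3.96% of all genes, and 1 rose, Ppargc1b (adjusted p = 0.0396 by edgeR). Those that fell were Elovl3, a fatty acid elongase (-2.28, adjusted p = 0.0379 by edgeR), the proton channel gene Otop1 (-1.83, 0.0407) and Prdm16 (-1.35, 0.0269). Without both KO 1 and Flox 2, 0 of the 16 passed. Ucp1 measured 1634, 1312 and 584 CPM in Flox and 2681, 402 and 364 CPM in KO, with KO 1 highest and KO 2 and KO 3 lowest of the 6 libraries (-0.03, SE 0.82; -1.63 without KO 1, adjusted p = 0.0684 by edgeR). Dio2, which makes active thyroid hormone in the tissue, was at 204, 153 and 31.4 against 481, 156 and 139 CPM, and Ppargc1a, the coactivator of mitochondrial biogenesis, at 33.8, 22.6 and 5.77 against 46.3, 16.4 and 14.8 CPM. For both the lowest library was Flox 3. Prdm16, a factor that maintains brown identity, was at 31.4, 27.2 and 20.2 against 38.5, 11.5 and 9.32 CPM and Cidea, a lipid droplet protein of brown fat, at 4473, 4176 and 2772 against 4884, 2931 and 3750 CPM. The 2 higher genes were Ppargc1b (88.2, 89.4 and 90.7 against 97.2, 152 and 132 CPM; 0.51, SE 0.20) and Slc27a2, a fatty acid transporter (127, 117 and 119 against 150.3, 172 and 151 CPM; 0.39, SE 0.15). Ebf2, the early commitment factor, and Kcnk3, a potassium channel of brown adipocytes, also lay higher without overlap, at 17.3, 15.6 and 10.4 against 17.9, 19.2 and 24 CPM and 135, 134 and 128 against 143, 145 and 206 CPM.

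The adrenergic pathway turns thermogenesis on. The main receptor of adipocytes, Adrb3, measured 46.2, 39.2 and 34.7 CPM in Flox and 83.1, 18 and 13.8 CPM in KO (-0.07, SE 0.65). Without KO 1 it was lower in KO by the adjusted test (-1.35, adjusted p = 0.0188 by edgeR), and it was not among the 25 genes that passed without both KO 1 and Flox 2. Adcy3, the cyclase that makes cyclic AMP, was at 165, 119.9 and 57.5 against 317, 34.7 and 32.5 CPM and overlapped. Sik1, a kinase gene induced by cyclic AMP, was at 53.6, 52.6 and 49 against 67.9, 469 and 438 CPM (2.65, SE 0.66), and Crem, a cyclic AMP-responsive factor, at 9.35, 8.98 and 6.51 against 10.8, 12.9 and 10.9 CPM (0.48, SE 0.20). Pde3b, the phosphodiesterase through which insulin lowers cyclic AMP, was at 180.4, 156 and 101 against 203, 225 and 311 CPM (0.76, SE 0.28). Of 14 genes on this pathway, 4 were higher at the unadjusted threshold and 0 lower, and 1 without Flox 2. Sympathetic nerve markers could not show the input itself: Th, Dbh, Ddc, Slc6a2, Npy and Nefl were at or near 0 in all 6 libraries and were not tested.

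Fuel oxidation followed the libraries rather than the labels. Fatty acid oxidation genes summed to 13010, 10930 and 5652 CPM in Flox and 15210, 5653 and 5815 CPM in KO, with Flox 3, KO 2 and KO 3 within 3% of each other and below the rest. Acadvl, the first enzyme of long-chain beta-oxidation, measured 1554, 1271 and 562 CPM in Flox and 2052, 549 and 736 CPM in KO, and Etfa, which passes its electrons on, 816, 593 and 152 against 929, 260.3 and 310.4 CPM. Cpt2, of the carnitine shuttle, was at 295, 270.5 and 186 against 281, 78.4 and 71.1 CPM, where KO 2 and KO 3 were the lowest. The median log2 difference of the 18 genes was -0.14 with KO 1 and -0.87 without it, where 2 of the 18 passed the adjusted threshold, against 3.96% of all genes, and 0 did so without both KO 1 and Flox 2. With all 6 libraries 1 of the 18 was lower at the unadjusted threshold and 0 higher, and without Flox 2 0 passed in either direction.

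Respiratory chain genes had a like order in their sums. The sums for complex I were 10260, 9377 and 5889 CPM in Flox and 11320, 6082 and 6781 CPM in KO, and for ATP synthase 10500, 9413 and 5946 against 11190, 5915 and 6579 CPM. Genes coded by the mitochondrion itself summed to 118900, 94640 and 37840 against 146900, 36610 and 64440 CPM, the widest range of the 3. Of 60 nuclear genes of complexes I to IV and ATP synthase, the small subunits Uqcrq (829, 870.0 and 782 against 694, 484 and 530.4 CPM; -0.54, SE 0.20) and Atp5e (151, 183 and 201 against 135, 126 and 140.3 CPM; -0.42, SE 0.17) were lower at the unadjusted threshold. The one higher was the muscle form Cox6a2. Without Flox 2, 1 of the 60 was higher and 0 were lower.

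Heat shock genes divided the libraries along the same line. Hspa1a, the inducible HSP70, measured 240.2, 160.1 and 7.73 CPM in Flox and 557, 39.4 and 29 CPM in KO, and Hsph1, its exchange factor, 455, 302 and 20.1 against 716, 19.8 and 20 CPM. The abundant Hspa8 was at 6204, 4666 and 1377 against 7714, 2045 and 2098 CPM and Hsp90aa1 at 1563, 1125 and 290.4 against 2120, 520.3 and 415 CPM. The range within Flox for Hspa1a was more than 20-fold, and Flox 3, KO 2 and KO 3 were low together. Only Bag3, an HSP70 cofactor in the clearance of aggregates, was higher in KO at the unadjusted threshold among the 16 listed, at 134, 117 and 79.7 against 184, 217 and 232 CPM (0.94, SE 0.23).

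Lipid synthesis and storage overlapped between the labels for most genes. Of 16 lipogenic genes 1 was higher at the unadjusted threshold: Lpin1, which makes diacylglycerol and coactivates oxidation genes, at 236, 189.8 and 105 against 290.5, 334 and 425 CPM (0.98, SE 0.32). Fasn, fatty acid synthase, measured 771, 794 and 820.1 CPM in Flox and 1371, 530.1 and 679 CPM in KO, highest in KO 1. Scd1, which desaturates fatty acids, was at 555, 636 and 604 against 454, 432 and 1654 CPM, more than 2-fold higher in KO 3 than in any other library. G0s2, the inhibitor of the triglyceride lipase, was at 1015, 701 and 116 against 1136, 164 and 138 CPM, and Fabp4, the fatty acid carrier, at 16700, 15220 and 10880 against 16250, 7670 and 8063 CPM. Plin1, the coat of the lipid droplet, was at 675, 594 and 376 against 762, 322 and 223 CPM and the lipase gene Lipe at 521, 551 and 591 against 589, 537 and 529 CPM, the latter nearly level. Aqp7, the glycerol channel, was at 87.3, 91.4 and 107 against 86.5, 38.1 and 36.3 CPM (-0.83, SE 0.35), with KO 2 and KO 3 low and KO 1 just below Flox 1.

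Cholesterol genes under SREBP2 control had 4 of 14 members higher at the unadjusted threshold and 0 lower (2 higher without Flox 2). Insig1, which retains the SREBPs, measured 29.9, 31.9 and 26 CPM in Flox and 36.6, 51.5 and 56.9 CPM in KO (0.73, SE 0.20), and all KO libraries lay above Flox. Fdft1, squalene synthase, was at 68.7, 70.8 and 60.5 against 54.9, 149.8 and 236 CPM (1.14, SE 0.47), with KO 1 below the Flox range. Hmgcs1 (97.1, 79.3 and 39.4 against 115, 60.6 and 43.1 CPM) and Sqle (2.31, 2.67 and 2.66 against 2.27, 3.43 and 2.43 CPM), enzymes of the same route, overlapped.

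Glucose use gave 2 of 16 genes higher at the unadjusted threshold, Pfkm and Pdk4, and both also without Flox 2. Pdk4, which shuts pyruvate out of the mitochondrion, measured 599, 526 and 379.9 CPM in Flox and 881, 809.8 and 1261 CPM in KO (0.97, SE 0.26, adjusted p = 0.47 by edgeR). Pfkm was at 56, 59.6 and 58.9 against 92, 124 and 95.7 CPM, while the liver-type and platelet-type forms of phosphofructokinase, Pfkl (239, 187 and 85.3 against 326, 80.4 and 59.6 CPM) and Pfkp (124, 120.5 and 107 against 200.2, 93.9 and 102 CPM), overlapped. Slc2a4, the insulin-responsive glucose transporter, was at 210.0, 190.0 and 135 against 233, 131 and 139 CPM. Creatine cycling genes were uneven: Ckb, the brain-type creatine kinase of brown fat, was at 132, 123 and 95.1 against 101, 54.1 and 65.1 CPM, with KO 1 above Flox 3 (-0.67, SE 0.27), and Ckmt2, the mitochondrial form of muscle, higher at 14.4, 14 and 8.9 against 34, 45 and 20.4 CPM (1.41, SE 0.33). For Ckb the unadjusted p of edgeR's quasi-likelihood test was 0.0423, and 0.0921 without Flox 2. Slc6a8, the creatine transporter, was at 8.09, 7.29 and 7.83 against 9.35, 16 and 20.5 CPM (0.98, SE 0.29).

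Schwann cell and myelin genes lay lower in KO. Of 12, 6 were lower at the unadjusted threshold, against 4.26% of all genes, and 5 without Flox 2. Sox10, the transcription factor of the lineage, measured 4.69, 5.26 and 7.66 CPM in Flox and 3.12, 2.61 and 2.04 CPM in KO (-1.18, SE 0.27), and Prx, periaxin, measured 18.5, 19.9 and 25.8 against 10, 13.6 and 11.7 CPM (-0.86, SE 0.20). In both the KO libraries lay below every Flox library, KO 1 included. Cnp, a myelin enzyme, was at 31.1, 40.1 and 56 against 36.1, 47.2 and 50.3 CPM and overlapped. The 1 higher member, Egr2, is also an immediate early gene and followed that pattern.

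Few white adipocyte markers were expressed, and 2 of them were lower in KO. Of 10, the defining Hoxc10 and Tcf21 were at or near 0 and 6 were tested. Among these 6, 5 had a log2 difference below 0 and 1 above it, at 0.85. At the unadjusted threshold 2 were lower, with and without Flox 2. Slc7a10 is given above. Nnat, neuronatin, measured 28.5, 21.4 and 12.2 CPM in Flox and 10.7, 7.1 and 4.83 CPM in KO (-1.46, SE 0.40). Wfdc21 was at 2.02, 2.21 and 4.29 against 0.303, 1.86 and 1.38 CPM (-1.26, SE 0.63), and the leptin gene Lep overlapped at 45.3, 33 and 10.3 against 34.5, 19.2 and 12.5 CPM. The summed level of the list was 108, 96.7 and 73.6 CPM in Flox and 61.2, 63.7 and 56 CPM in KO, without overlap. Most of that difference came from Slc7a10 and Nnat.

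Endothelial genes did not share a direction. Of 12, 3 were lower at the unadjusted threshold and 0 higher, and 1 lower without Flox 2. Tek, the angiopoietin receptor, measured 245, 311 and 404 CPM in Flox and 209.9, 200.3 and 208 CPM in KO (-0.63, SE 0.21), and Kdr, the main VEGF receptor, 565, 579 and 686 against 522, 309.5 and 337 CPM (-0.65, SE 0.24). The junction gene Cldn5 was at 32.2, 56.5 and 96.6 against 18.9, 387 and 474 CPM and Esam at 167, 179 and 223 against 134, 380.3 and 406 CPM, both high in KO 2 and KO 3 and lowest in KO 1. The pan-endothelial Cdh5 was nearly level, at 626, 695 and 811 against 566, 699 and 804 CPM. Vegfa, the ligand, was at 1176, 864 and 426 against 1891, 967 and 1122 CPM.

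Extracellular matrix genes had a median of -0.38, with 3 of 18 lower at the unadjusted threshold (1 without Flox 2) and 0 higher. Col5a2 and Col5a1, chains of a fibril-nucleating collagen, measured 70.3, 65.5 and 61.5 against 45, 50.3 and 49.4 CPM (-0.45, SE 0.14) and 69.2, 60.6 and 50.8 against 45.1, 45 and 43.2 CPM (-0.44, SE 0.16). Fn1, fibronectin, was at 64.5, 57.8 and 53.8 against 51.5, 41 and 36.7 CPM (-0.45, SE 0.18). The 3 genes lay lower in every KO library, whereas Col3a1, at 531, 420.5 and 218 against 379, 196 and 194 CPM, was lowest in Flox 3, KO 2 and KO 3 and overlapped.

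Most leukocyte genes overlapped between the groups. Of 15 macrophage genes 0 passed the unadjusted threshold, and the general marker Csf1r measured 15.1, 16.7 and 19.9 CPM in Flox and 15.3, 17 and 15.8 CPM in KO. Cd68, a lysosomal protein of macrophages, lay higher without overlap, at 6.01, 5.43 and 5.33 against 8.54, 7.32 and 6.07 CPM. Of 10 neutrophil genes 0 passed, although the median log2 difference was 1.08. S100a9, an abundant granulocyte protein, was at 0.85, 3.38 and 7.8 against 1.47, 31.9 and 14.7 CPM, and the defining Ly6g was at or near 0. The neutrophil sum was 3.28, 8.54 and 19 CPM in Flox and 5.19, 54.2 and 25.4 CPM in KO, highest in KO 2 and lowest in Flox 1 and KO 1. Jchain, of antibody-secreting cells, was lower without overlap, at 1.52, 1.42 and 1.56 against 0.649, 0.669 and 0.788 CPM (-1.09, SE 0.25). Igkc, an antibody light chain, was at 5.95, 5.26 and 5.77 against 3.16, 2.33 and 5.2 CPM, with KO 3 only just below Flox 2. Of 10 B cell genes, 2 lay apart as lower, against 8.37% of all genes, and 1 was lower at the unadjusted threshold. The B cell sums overlapped, at 17.5, 21.6 and 33 CPM in Flox and 16, 19.4 and 18.8 CPM in KO. Kit, which mast cells also carry, was higher while the mast cell proteases Mcpt4 (1.21, 1.42 and 1.27 against 1.04, 0.816 and 0.536 CPM) and Cpa3 (1.07, 0.606 and 0.498 against 1.15, 0.751 and 0.687 CPM) were not. Of 6 mast cell genes tested, 3 had a log2 difference above 0 and 3 below it. At the unadjusted threshold 1 was higher, and without KO 1, 2 were higher at the adjusted threshold, against 4.33% of all genes. With Kit included, the list summed to 24.8, 25.7 and 30.2 CPM in Flox and 35.5, 112 and 60.8 CPM in KO.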

How the data were processed

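The deposited table holds raw counts per gene, whole numbers for 6 libraries, made by the authors with Trimmomatic 0.36, STAR 2.5.3a, featureCounts and Subread 1.5.1 on GRCm38, per the submitters' processing notes. The treatment of multiply mapped reads and of strand is not given in the sources used here, and genes that overlap or have near-identical copies are uncertain. Of the counts from 1 to 20, 74.4% to 77.1% were even, and counts are called reads. The gene positions in the table differ from GRCm38 annotation, so none is printed from it. Promoter sequences are RefSeq's (GRCm38.p6).

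Libraries of KO and Flox were compared in R 4.3.3 with edgeR 4.0.16: filterByExpr by group, TMM scaling, robust quasi-likelihood F test, and Benjamini-Hochberg adjustment over the tested genes (threshold 0.05). CPM was computed here from the deposited counts and the TMM-scaled library sizes. Members of 56 lists are named with the smallest unadjusted p, up to 4 per list, and further ones after their values were seen. The rule also named 33 fixed markers. It took the 8 genes per direction of smallest unadjusted p that lay apart and reached 10 CPM, the 8 of largest change among calls made without a library, and 5 genes per direction in which 1 library stood furthest from the rest. Members, lists and tests were chosen with earlier results of these data known. Only the edgeR comparison, with all libraries and without KO 1, was tested on simulated counts. List counts cover all members, and some members are not reported here by name.

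Alternatives were RLE and upper-quartile scaling, 2 other filters, DESeq2 1.42.0, limma-voom (limma 3.58.1), a replicate block, no mitochondrial genes, a muscle score as covariate, each library left out, and Flox 2 and Flox 3 left out together. The fits without KO 1 and 1 Flox library together, and the comparison of each library with sums of the others, were chosen after seeing the data.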

Additional observations from a re-analysis of the deposited data

How the results depend on the processing

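The count of 0 genes past the adjusted threshold stayed at 0 under RLE and upper-quartile scaling. It was also 0 with a filter of CPM 1 in 3 libraries, in limma-voom and with no mitochondrial genes. With the muscle score as covariate it was 0 too. That score was -0.703, -0.617 and -0.627 in Flox 1 to Flox 3 and 0.316, 1.45 and 0.182 in KO 1 to KO 3. It thus separates the labels, and a fit with it has little left to tell them apart, so this 0 carries little weight. The count was 1 with no filter except 1 read and 292 in DESeq2, which left 3976 genes without an adjusted p. Leaving out 1 library gave 0 to 1764 genes, above 0 without KO 1 only, and leaving out KO 1 together with Flox 1, Flox 2 or Flox 3 gave 1044, 25 and 6178. With the replicate number as a block the count was 0 (smallest adjusted p = 0.0707 by edgeR). The numbers share nothing else in the labels, deviations of same-numbered libraries correlated at 0.573, -0.287 and 0.465, and KO 2 correlated best with Flox 3, so they were not taken to pair the libraries.

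Log2 differences near 0 changed sign. Over the fits that left out 1 library, Ucp1 ranged from -1.63 to 0.389, Cidea from -0.206 to 0.182, Elovl3 from -2.28 to 0.54, Ppargc1a from -0.42 to 0.858, Adipoq from -0.262 to 0.207, Adrb3 from -1.35 to 0.335, Lipe from -0.0764 to 0.0371, Fasn from -0.414 to 0.367 and Psmd12 from -0.247 to 0.0712. Without Flox 2 and KO 1 together, Cidea was at -0.146, Elovl3 at -2.39, Ppargc1a at -0.365, Adipoq at -0.163 and Fasn at -0.427. Without Flox 2 and Flox 3, which leaves Flox 1 alone in its group, Cidea was at -0.235, Ppargc1a at -0.406, Adipoq at -0.377 and Lipe at 0.0623. The muscle score separates the labels, so differences fitted with it are uncertain. With that score, Ucp1 was at 1.79, Plin1 at 0.215, Adrb3 at 1.25, Lipe at 0.0326, Psmb5 at 0.0933, Psmd12 at 0.3 and S100a8 at -0.136. Upper-quartile scaling gave Cidea -0.0068, Elovl3 -0.0247 and Adipoq -0.0203. Adipoq was at -0.00293 under RLE and in DESeq2 and at -0.00524 without the filter. Elovl3 was at -1.01 in limma-voom and -1.14 with the block, and Fasn at -0.0133 with the block. The cause was not tested in any of these.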

Other observations

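Interferon-stimulated genes were high in KO 2 alone. Of 18, 0 passed the unadjusted threshold between the labels in edgeR's quasi-likelihood test. Relative to the median Flox library the list lay at -0.19, 0.00 and 0.24 on the log2 scale in Flox 1 to Flox 3 and at -0.20, 1.19 and -0.19 in KO 1 to KO 3. Ifit3, an antiviral tetratricopeptide protein, measured 78.1, 93.7 and 112 CPM in Flox and 59.5, 272 and 105 CPM in KO, and Gbp3, a guanylate-binding protein, 371, 506 and 742 against 400.3, 1240 and 379 CPM. Zbp1, a sensor of Z-form nucleic acids, was at 2.45, 3.47 and 5.33 against 3.79, 21.8 and 5.43 CPM, the gene furthest above all other libraries in KO 2. KO 2 had 107 genes at least 2-fold above every other library, against 26 in KO 1, 6 in KO 3, 6 in Flox 3 and 0 in Flox 1 and Flox 2. As Flox 2 was nearly a weighted sum of Flox 1 and Flox 3, the values of 0 were nearly fixed in advance.

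KO 3 stood highest for Scd1 and for Hsd11b1, which regenerates active glucocorticoid, at 26.8, 26.4 and 24.6 against 47.4, 62.5 and 129 CPM. Of 12 glucocorticoid targets, 5 were higher in KO at the unadjusted threshold and 2 without Flox 2. Fkbp5, a receptor chaperone, was at 15, 23.3 and 32.5 against 12.2, 96.6 and 145 CPM, and Errfi1, a feedback inhibitor of growth factor receptors, at 43.9, 37.2 and 26.2 against 47.9, 146 and 129.5 CPM. Clock genes varied within both labels. Npas2, a clock activator, measured 0.243, 1.46 and 4.76 CPM in Flox and 0.303, 2.27 and 7.66 CPM in KO, Dbp 33.4, 63.6 and 103 against 25.9, 91.2 and 42.3 CPM and Per1 109.6, 102 and 105 against 103, 409.7 and 299.6 CPM. Flox 3 was furthest below all others, leaving out Y-linked genes, for the phosphatase gene Dusp10 (25.2, 18.9 and 3.59 against 36.9, 29.5 and 33.4 CPM) and for Atf3. Flox 3 was furthest above, after Xist, for Cfap74 (2.16, 5.54 and 12.9 against 4.11, 4.64 and 4.93 CPM).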
